A study of Mus musculus with 8 samples.

Results

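The 9 genes described here mark the passage from neural progenitor to young neuron: Neurog2, Neurod1, Dlx1, Dlx2, Dlx5, Sp8, Prox1, Dcx and Tubb3. They were chosen by name as early neurogenic genes, with earlier results of these data known, and make up 9 of the 18350 genes on the array that could be tied to a RefSeq symbol. Each of the 8 samples, secondary neurospheres grown from adult hippocampus (mice of 7 to 9 weeks), was hybridised to its own one-colour Agilent array. Neurospheres are floating clusters of neural stem and progenitor cells, here grown with bFGF, EGF and heparin, growth factor conditions that maintain progenitors, and the secondary ones form after a first generation is taken apart and plated again. The 4 groups had 2 arrays each. WT and Sirt1 KO cells came from 129/ICR mice and were cultured for 6 days, replicate 1 from females and replicate 2 from males. DMSO and resveratrol cells came from C57BL/6 wild-type males and were cultured for 5 days before 24 hours of vehicle or of resveratrol, whose labelled dose is 10 with the unit written "mm". Sirt1 encodes a deacetylase that consumes NAD, and resveratrol, found in grapes, is widely used as its activator. How the Sirt1 allele was made, and in which cells it was lost, is not given in the sources used here. The labels do not say whether the 2 arrays of a group came from separate animals or cultures, except where sex differs, so a p-value here reflects no more than the spread among these samples, which may be technical.

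Proneural factors such as Neurog2 are basic helix-loop-helix proteins that bind E-box DNA, drive progenitors out of the cell cycle and switch on later factors such as Neurod1, while Hes, Hey and Id proteins hold them back. Dlx homeodomain proteins and the zinc finger factor Sp8 act in the lineage of forebrain inhibitory interneurons, and Prox1 sets the identity of dentate granule neurons, the cells made in the adult hippocampus. Dcx, which binds microtubules in migrating neuroblasts, and Tubb3, a neuronal beta-tubulin, are the usual stains for young neurons.

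The promoters of the genes on which the values below turn are shown because the motifs marked in them are those known for the bHLH, homeodomain and Sp families, to which members of the set belong. They come from RefSeq (GRCm38.p6) and run from 250 bases before to 50 bases after the annotated start, 5′ to 3′ along the gene's strand. Capitals mark the E-box CANNTG, the homeodomain core TAATTA and the GC box GGGCGG or its reverse complement CCGCCC, which Sp proteins are known to bind. All were searched on both strands, and no marked motifs overlapped. Sp8 is given at its second listed start, chr12:118846983-118847282 on the plus strand, Dlx1 at chr2:71529195-71529494 (plus), Dlx2 at chr2:71546705-71547004 (minus), Dcx at its first listed start, chrX:143933170-143933469 (minus), and Tubb3 at chr8:123411303-123411602 (plus).
Sp8: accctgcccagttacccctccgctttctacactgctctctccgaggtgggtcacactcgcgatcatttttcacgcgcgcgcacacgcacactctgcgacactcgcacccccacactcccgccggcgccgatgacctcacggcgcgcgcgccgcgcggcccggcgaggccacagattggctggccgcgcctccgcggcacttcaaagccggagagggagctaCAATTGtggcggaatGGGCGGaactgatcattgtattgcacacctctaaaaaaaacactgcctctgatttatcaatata
Dlx1: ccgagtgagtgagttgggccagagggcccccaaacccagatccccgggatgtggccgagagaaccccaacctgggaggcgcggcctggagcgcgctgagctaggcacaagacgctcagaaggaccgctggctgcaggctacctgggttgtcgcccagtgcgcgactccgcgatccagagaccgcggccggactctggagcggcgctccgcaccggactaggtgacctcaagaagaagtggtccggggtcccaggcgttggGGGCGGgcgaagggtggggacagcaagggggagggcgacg
Dlx2: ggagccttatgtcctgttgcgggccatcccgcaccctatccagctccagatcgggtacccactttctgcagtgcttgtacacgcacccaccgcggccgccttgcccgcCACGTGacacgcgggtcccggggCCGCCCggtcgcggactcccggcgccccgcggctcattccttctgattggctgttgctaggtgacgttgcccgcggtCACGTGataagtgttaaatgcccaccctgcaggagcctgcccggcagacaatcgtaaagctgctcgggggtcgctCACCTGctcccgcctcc
Dcx: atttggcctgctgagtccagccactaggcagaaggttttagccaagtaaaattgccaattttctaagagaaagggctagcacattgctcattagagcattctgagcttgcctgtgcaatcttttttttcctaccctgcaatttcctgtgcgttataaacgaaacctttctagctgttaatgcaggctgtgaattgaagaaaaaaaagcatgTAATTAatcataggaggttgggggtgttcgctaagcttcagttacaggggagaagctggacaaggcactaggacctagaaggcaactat
Tubb3: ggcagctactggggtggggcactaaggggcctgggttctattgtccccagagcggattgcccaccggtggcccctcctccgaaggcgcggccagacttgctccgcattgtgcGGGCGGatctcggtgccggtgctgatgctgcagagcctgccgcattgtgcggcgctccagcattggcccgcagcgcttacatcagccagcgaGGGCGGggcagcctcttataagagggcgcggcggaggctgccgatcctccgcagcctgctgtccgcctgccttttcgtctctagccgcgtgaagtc

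Promoters were matched for 8 of the 9 genes, with 12 start sites between them; the table used holds no entry for Dlx5. An E-box lay in 5 of the 12 windows, against 72.3% of all 32817 promoter windows of 300 bases. Dlx2 held 3 E-boxes and Dlx1 none, although their starts lie 17309 bases apart on opposite strands. The GC box lay in 8 of the 12 (35.6% of all promoters) and TAATTA in 3 of the 12 (5.3% of all). Both Dcx windows, which overlap each other, held the same TAATTA site, counted above in each window, and no GC box. The Tubb3 window held 2 GC boxes and no E-box. Among the Sp8 windows only that shown held a GC box. The first listed held none of the motifs, and the third an E-box and a TAATTA. A match describes the letters of the window and is not evidence of binding.

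Signals below are given as the scanner's background-corrected intensity, and levels as its log2 relative to the 75th percentile of the same array, so that a level of -3 lies 3 doublings below that percentile. That percentile ran from 741 to 910 over replicate 1 of the 4 groups and from 257 to 389 over replicate 2, and 53.0% to 72.0% of probes were called well above background, with 0 saturated spots. Replicate 2 was therefore the dimmer array in all 4 groups. The arrays lay on 3 slides: WT 1, DMSO 1 and resveratrol 1 on the first, Sirt1 KO 1, DMSO 2 and resveratrol 2 on the second, and WT 2 and Sirt1 KO 2 on the third, which was the only slide of its scan day. Sirt1 RNA itself, read by its brighter probe, stood at 0.12 and 0.13 in WT, 0.36 and -0.12 in Sirt1 KO, 0.039 and 0.053 in DMSO, and 0.039 and 0.26 in resveratrol. A second probe gave -1.38 and -1.04 in WT and -1.08 and -1.97 in Sirt1 KO, so on both probes the groups overlapped. Whether either probe lies in the part of the gene altered in the knockout is not given in the sources used here, so these values are no check on the labels, and Sirt1 KO below means the arrays so labelled. Of the stem and progenitor markers 7 of 8 were well above background on every array, and so were 5 of 5 oligodendrocyte precursor markers. Of the mature neuron markers 3 of 7 were, while Slc17a7, the vesicular glutamate transporter of excitatory neurons, was above background on no array. The astrocyte markers had 5 of 7 well above background on every array, and the oligodendrocyte markers 3 of 5. Of the microglial markers 2 of 6, and of the endothelial markers 0 of 5, were above background on every array. Among all genes with a symbol, 63.7% had a probe that was. In bulk RNA of this kind, fewer cells of a type and less RNA per cell cannot be told apart.

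The proneural factors proper were weak, Neurog2 being detected on some arrays and Neurod1 on none. Neurog2 had signals of 21.1 and 5.8 in WT, 30.6 and 15.3 in Sirt1 KO, 84.4 and 3.6 in DMSO, and 43.9 and 3.7 in resveratrol (replicate 1 first). It was well above background on 3 of 8 arrays, the replicate 1 arrays of Sirt1 KO, DMSO and resveratrol. Its level on DMSO 1 was -3.21, while on DMSO 2 it was not above background, where the lowest signal so called stood at -5.05. The arrays of that group thus differed between themselves. Neurod1, the factor that follows Neurog2 in granule neuron formation, was well above background on 0 of 8 arrays, with signals of 2.7 to 7.7. Among all genes with a symbol, 17.5% had no probe well above background on any array, and 63.7% had one that was above it on all 8. Neither gene passed the filter on dim probes, which asked for a signal well above background in each array of some group. That filter kept 64% of all probes and 72.6% of genes, and 5 of the 9 genes described here: Dlx5, Sp8, Prox1, Dcx and Tubb3.

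Dlx1 and Dlx2, neighbouring genes that act redundantly in interneuron progenitors, were each well above background on 1 array only, and it was the same array, Sirt1 KO 1. Dlx2 had a signal of 119 there and of 3.6 to 8.6 on the other 7. Dlx1 had a signal of 35.3 there and of 3.5 to 10.3 on the others. The levels on Sirt1 KO 1 were -2.93 for Dlx2 and -4.69 for Dlx1, and the second Sirt1 KO array stood at -6.32 and -6.00. The lowest signal called well above background on Sirt1 KO 2, its floor, stood at -4.40. A Dlx2 level like that of Sirt1 KO 1 would have stood above it, and it was not seen. Such a floor is no strict limit, as Prox1 on WT 2, at -3.80, was above the floor there and was not called. On WT 2 that floor stood at -3.88, above the Dlx1 level of Sirt1 KO 1, so for Dlx1 the arrays cannot be put in order. No fold is given for either gene, because 1 of the 2 Sirt1 KO arrays and both WT arrays were not above background. Sirt1 KO 1 is female and lies on the second slide, whereas Sirt1 KO 2 is male and lies on the third, of another scan day. Their 75th percentiles were 910 and 326, with 69.1% and 58.9% of probes well above background. These differences cannot be told apart, and the share of all genes detected on Sirt1 KO 1 alone was not counted.

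Dlx5, a later Dlx gene of maturing interneurons, was well above background on 6 of 8 arrays. Its levels were -3.28 and -6.10 in WT, -4.95 and -4.56 in Sirt1 KO, -4.96 and -4.34 in DMSO, and -5.02 and -3.90 in resveratrol, where WT 2 and Sirt1 KO 2 were not above background. On WT 2 the floor stood at -3.88, so the level there is known only to lie below about that value. The differences were -0.06 (SE 0.94) for Sirt1 KO minus WT and 0.19 (SE 0.94) for resveratrol minus DMSO, with adjusted p of 0.9999 and 0.9997 by limma with Benjamini-Hochberg adjustment. The 95% interval for Sirt1 KO minus WT was -2.31 to 2.18. That comparison has a measured value on both sides in replicate 1 alone, where it was -1.67.

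**Figure D1:**
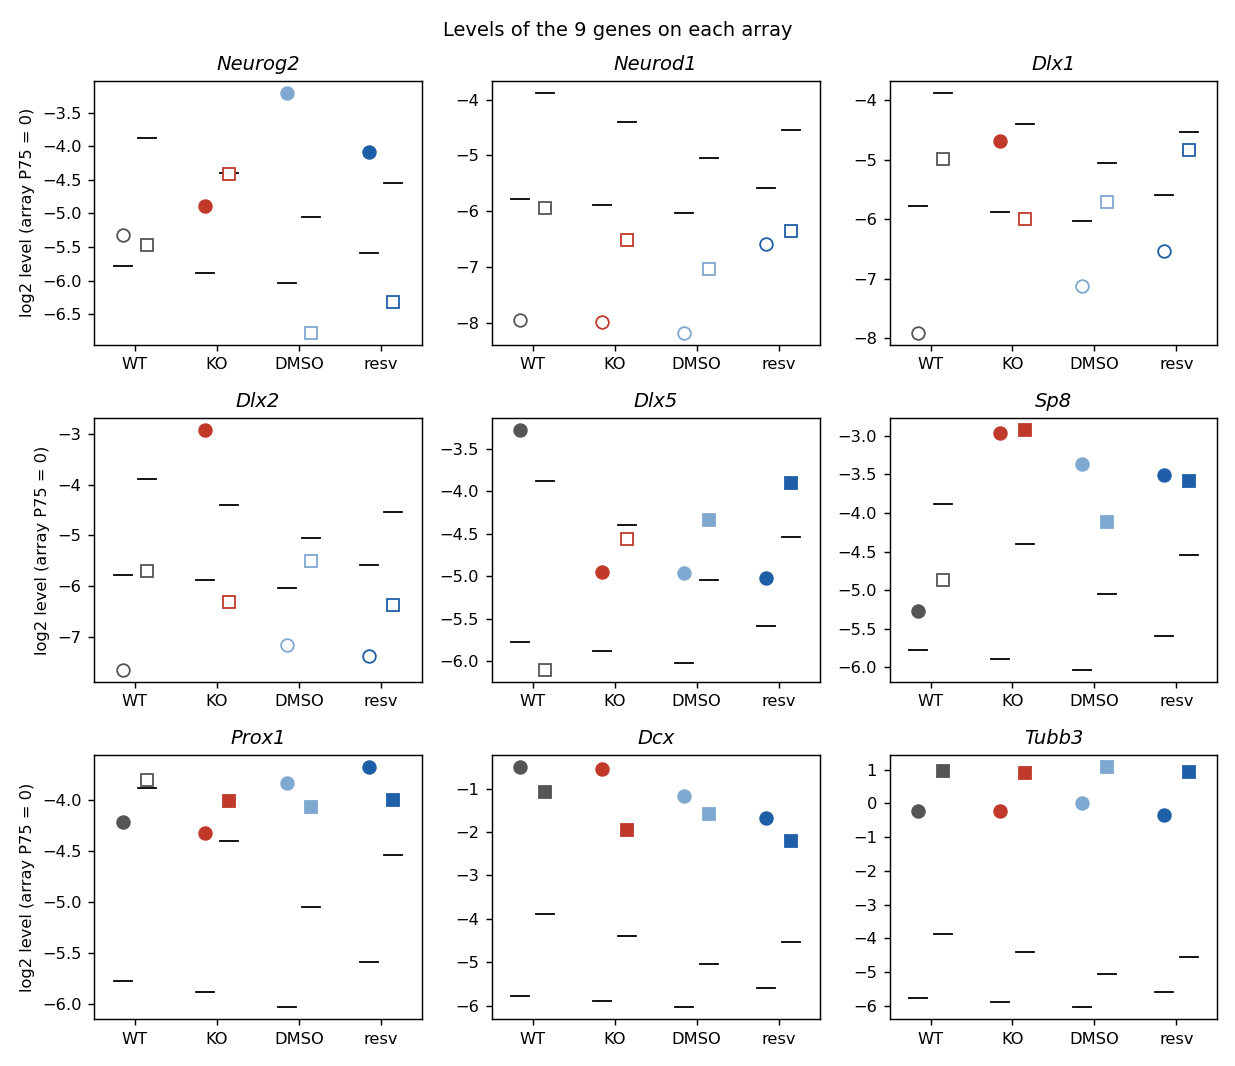
Level of each of the 9 genes on each of the 8 arrays (log2 of signal relative to the array's 75th percentile, vertical axis) by group. Circles are replicate 1 and squares replicate 2, filled symbols were called well above background, and the short black line is the lowest signal so called on that array; Dlx1 and Dlx2 are filled only on Sirt1 KO 1, and Neurod1 nowhere.

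Sp8, of the 5 genes tested, had the widest difference between WT and Sirt1 KO. Its signals were 21.9 and 8.8 in WT, 116.9 and 42.9 in Sirt1 KO, 76.0 and 22.3 in DMSO, and 65.4 and 24.7 in resveratrol, and WT 2 was the only array not well above background. The levels were -5.27 and -4.87 in WT, -2.96 and -2.93 in Sirt1 KO, -3.36 and -4.12 in DMSO, and -3.50 and -3.59 in resveratrol. Both Sirt1 KO arrays lay above both WT arrays, also with WT 2 set at its floor of -3.88, and 7.1% of all measured genes were separated in that direction. The resveratrol arrays lay within the range of the DMSO arrays, and none of the 5 tested genes lay wholly higher with resveratrol, against 10.3% of all measured genes. In the females Sirt1 KO 1, on the second slide, exceeded WT 1, on the first, by 2.31. In the males, on 1 slide, the measured gap of 1.95 is against a WT signal not above background, and against that array's floor it was 0.96.

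The mean difference in Sp8, Sirt1 KO minus WT, was 2.13 on the log2 scale (SE 0.41, 95% interval 1.15 to 3.11, n = 2 and 2) with the WT 2 value as read. With WT 2 at its floor, which is not a strict upper limit, the difference was 1.63, or 3.1-fold. It did not pass the test across all genes: the unadjusted p from limma was 0.00141 and the Benjamini-Hochberg adjusted p 0.9999. That test called 0 of 13331 genes in this comparison, 0%, with 159 at an unadjusted p under 0.05. With replicate number added to the fit as a block, 26 genes were called. Sp8, with WT 2 as read, then had a limma adjusted p of 0.0516. Resveratrol minus DMSO was 0.19 for Sp8 (SE 0.41, interval -0.78 to 1.17), with pairs of -0.14 on the first slide and 0.53 on the second. The difference between these differences was 1.93 (SE 0.58, interval 0.55 to 3.32), with an unadjusted p of 0.0132 and an adjusted p of 0.9999 by limma, which called 0 of 13331 genes here too, with 126 at an unadjusted p under 0.05. DMSO minus WT was 1.33 (SE 0.41, interval 0.35 to 2.31, limma adjusted p = 0.550). Those groups differ in strain, vehicle and culture schedule, in sex for replicate 1, and in slide and scan day for replicate 2. As read, both DMSO arrays lay above both WT arrays, as for 12.3% of all measured genes, but the WT 2 floor of -3.88 lies above DMSO 2, and with WT 2 at that floor the difference was 0.84. This comparison shares its WT arrays with the knockout comparison, and the low WT values enter both. Under another background correction, normexp on the local background of each spot, Sirt1 KO minus WT turned to -0.47 and DMSO minus WT to -0.82. On WT 1 and WT 2 the highest local background of a spot was 12125.5 and 2178, against 44 to 109 on the other arrays, and with 1 background value per array the same correction, chosen after seeing the data, gave 0.66 for Sirt1 KO minus WT.

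Prox1, the granule neuron factor, was well above background on 7 of 8 arrays and its 2 probes read differently. The levels of the probe with the higher mean were -4.21 and -3.80 in WT, -4.32 and -4.01 in Sirt1 KO, -3.83 and -4.07 in DMSO, and -3.68 and -4.0 in resveratrol, with WT 2 not above background. On this probe every group overlapped the group it was compared with. Sirt1 KO minus WT was -0.16 (SE 0.39, interval -1.09 to 0.77) and resveratrol minus DMSO was 0.11 (interval -0.82 to 1.05), with limma adjusted p of 0.9999 and 0.9997. A second Prox1 probe, also above background on all arrays but WT 2, read otherwise. Its levels were -4.55 and -4.83 in WT, -4.36 and -3.72 in Sirt1 KO, -4.08 and -3.84 in DMSO, and -3.58 and -3.47 in resveratrol, so both Sirt1 KO arrays lay above both WT arrays as read, and both resveratrol arrays above both DMSO arrays. For Sirt1 KO 1 that order does not hold against the WT 2 floor of -3.88. The second probe had pair differences of 0.19 and 1.11 for Sirt1 KO minus WT and of 0.50 and 0.37 for resveratrol minus DMSO. The mean of both probes was 0.25 for Sirt1 KO minus WT, the opposite sign to the first probe alone.

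Dcx and Tubb3 were well above background on 8 of 8 arrays. Dcx had signals of 596 and 122 in WT, 628 and 84.3 in Sirt1 KO, 346 and 130 in DMSO, and 231 and 64.8 in resveratrol. Its levels were -0.51 and -1.07 in WT, -0.53 and -1.95 in Sirt1 KO, -1.17 and -1.58 in DMSO, and -1.68 and -2.20 in resveratrol. Both resveratrol arrays were below both DMSO arrays, as 8.7% of all measured genes were, and both DMSO arrays were below both WT arrays, as 14% were. The Sirt1 KO arrays overlapped the WT arrays, as they did for Dlx5, Prox1 and Tubb3, so that 0 of the 5 tested genes lay wholly lower in Sirt1 KO, against 7.88% of all measured genes.

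Resveratrol minus DMSO was -0.56 for Dcx (SE 0.50, interval -1.75 to 0.63), with -0.51 on the first slide and -0.61 on the second. The adjusted p was 0.9997 by limma, which called 0 of 13331 genes, 0%, in this comparison, with 201 at an unadjusted p under 0.05. With replicate number added to the fit as a block, 61 genes were called. Dcx then had an SE of 0.22 and a limma adjusted p of 0.303. Sirt1 KO minus WT was -0.46 (SE 0.50, interval -1.65 to 0.73), made of -0.03 in the females and -0.89 in the males, and without Sirt1 KO 2 it was 0.25. DMSO minus WT was -0.59 (SE 0.50, limma adjusted p = 0.9996). Of the 13331 genes, 0.075% passed the test for DMSO minus WT, 10 genes with no member of the set among them, and 0 to 4 passed with any 1 of the 8 arrays left out. The other Dcx probes were too dim for the test, being above background on 3 and 2 of the 8 arrays. Neither was above background on any resveratrol array. The first of these was above it on DMSO 1 and not on DMSO 2, and as read its resveratrol minus DMSO pairs were -1.38 and -0.09. The second was above it on no DMSO array either, so it does not bear on that comparison.

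Tubb3 gave smaller differences between groups than Dcx, the other gene of the set above background on every array. Its levels were -0.24 and 0.97 in WT, -0.22 and 0.89 in Sirt1 KO, 0.02 and 1.07 in DMSO, and -0.34 and 0.93 in resveratrol. In each group replicate 2 was the higher array, and the groups overlapped throughout. Sirt1 KO minus WT was -0.03 (SE 0.66, interval -1.60 to 1.54) and resveratrol minus DMSO was -0.25 (SE 0.66, interval -1.82 to 1.32), with limma adjusted p of 0.9999 and 0.9997. Within a pair the values lay close, 0.02 and -0.08 for Sirt1 KO minus WT and -0.36 and -0.14 for resveratrol minus DMSO. With replicate number added to the fit as a block, the SE of each difference was 0.13. The limma adjusted p was then 0.936 and 0.452, though no label states that the numbers are pairs. The probe was spotted 10 times on each array, and the SD of its unflagged spots within an array was 0.06 to 0.09 log2.

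**Figure D2:**
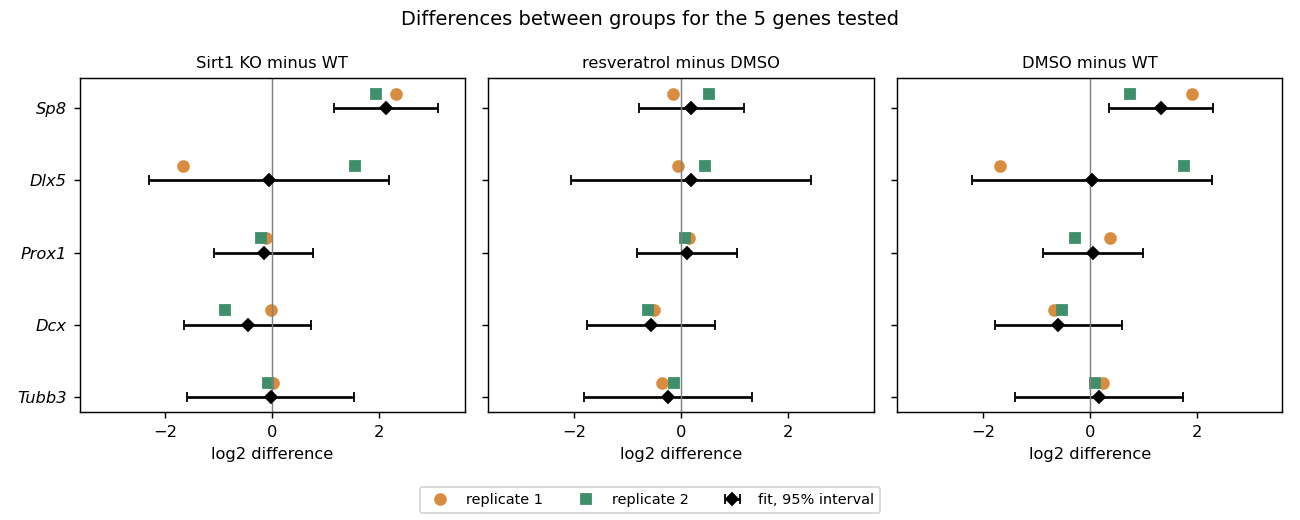
Difference between groups (log2, horizontal axis) for the 5 genes that passed the filter on dim probes, with the mean and its 95% interval from limma and the replicate 1 and replicate 2 differences as separate points. For Sirt1 KO minus WT the Sp8 interval, with WT 2 as read although not above background, runs from 1.15 to 3.11, and every Dlx5, Prox1, Dcx and Tubb3 interval spans 0.

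Tubb3 and Dcx differed by replicate number in opposite directions. Replicate 2 minus replicate 1 was 1.21 in WT, 1.11 in Sirt1 KO, 1.05 in DMSO and 1.27 in resveratrol for Tubb3, a mean of 1.16 ± 0.10 (SD over 4 groups). For Dcx it was -0.56, -1.42, -0.41 and -0.52, a mean of -0.73 ± 0.46. The median over all genes was 0.24, replicate 2 was higher in all 4 groups for 44.8% of genes, and lower in all 4 for 21.1%. The raw Tubb3 signal before scaling differed by -0.22 in the mean, so the sign for Tubb3 is relative to the rest of the array. After quantile normalization the Tubb3 mean was 1.10, and in the authors' deposited values 0.94. Replicate 1 and 2 differ in overall signal and in slide in every group, and in sex and scan day in the WT and Sirt1 KO groups, and the part of each in these differences was not tested.

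**Figure D3:**
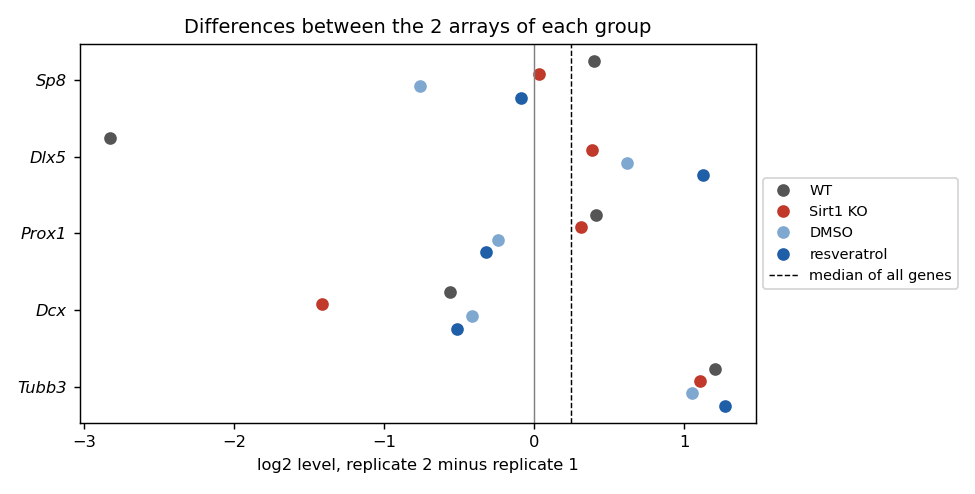
Replicate 2 minus replicate 1 (log2 level, horizontal axis) for the 5 genes tested, 1 point per group, with the median of all genes (0.24) as a dashed line. The 4 Tubb3 points lie between 1.05 and 1.27 and the 4 Dcx points between -1.42 and -0.41.

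Across the 8 arrays, the levels of the 5 genes had little in common. Pearson's r was -0.58 between Dcx and Tubb3, -0.54 between Dlx5 and Prox1, -0.47 between Dcx and Prox1 and -0.40 between Dcx and Sp8, and lay between -0.16 and 0.10 for the other pairs. These describe 8 arrays that share slides and differ in overall signal. The genes most like each of the 5 were then sought among 13287 genes by the same r. For Sp8 they were Dhtkd1 (0.964), Rdh5 (0.938) and Pipox (0.923), for Dcx Ugt8a (0.983) and Usp29 (0.980), and for Tubb3 Emc6 (0.996), Sbds (0.995) and Zfp787 (0.992). For Dlx5 they were Dgat1 (0.935), Rbm38 (0.927) and Pola2 (0.925), and for Prox1 Wwp1 (0.948), Trps1 (0.929) and Gnrh1 (0.918).

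The genes around the set were read from 5 lists of known partners, and limma called 0 genes of any list in Sirt1 KO minus WT, resveratrol minus DMSO or DMSO minus WT. The lists are therefore described by how many genes were higher or lower in both replicate pairs. The shares of all measured genes were 22.2% higher and 34.4% lower in both pairs for Sirt1 KO minus WT, 36.7% and 32.3% for resveratrol minus DMSO, and 26.8% and 34.2% for DMSO minus WT. The median differences of all genes were -0.04, 0.01 and -0.03.

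The proneural network, which holds other bHLH factors, their Delta ligand targets and cofactors, had 19 of 26 genes tested. Neurod4, Neurod6, Atoh1, Nhlh1, Nhlh2, Eomes and Tbr1, most of them factors of committed neurons, were too dim. For Sirt1 KO minus WT 6 were higher and 7 lower in both pairs, with a median of -0.06. For resveratrol minus DMSO 2 were higher and 8 lower, with a median of -0.11. Among the latter were Dll3 (-0.78, pairs -0.67 and -0.89) and Dll1 (-0.68). Of these, Dll1 is a ligand through which proneural factors act on neighbouring cells. Myt1 (-0.92), a zinc finger factor of neuronal differentiation, was also lower. The oligodendrocyte precursor markers were also lower there, 4 of 5 in both pairs and 0 higher, with Pdgfra, the growth factor receptor of these precursors, at -1.15 (pairs -1.01 and -1.28) and Sox10, their transcription factor, at -0.85 (pairs -0.84 and -0.86). Their summed signal relative to the 75th percentile was 154 to 198 in DMSO and 144 to 155 in resveratrol, and their part in the values of this list was not tested. The widest Sirt1 KO minus WT value in the list, 2.40 for Myt1l, rested on the males (4.73 against 0.08 in the females).

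The interneuron programme, the genes that work with Dlx and Sp8, had 12 of 20 tested, and Sp9, the closest relative of Sp8, was not matched on the array. For Sirt1 KO minus WT 4 were higher and 3 lower in both pairs, with a median of -0.02. The examples were Calb2, a calcium-binding protein of interneurons (1.58, SE 1.15), and Gsx1, a homeobox factor upstream of Dlx genes (-1.17, SE 0.60). Gad1, a GABA-synthesising enzyme, was 0.52 (SE 1.05), with 0.97 in the females and 0.08 in the males. For resveratrol minus DMSO 2 were higher and 7 lower, with a median of -0.15 and Calb2 at 1.22. The hippocampal and granule neuron factors had 14 of 18 tested, with 5 higher and 4 lower for Sirt1 KO minus WT and 2 higher and 9 lower for resveratrol minus DMSO, medians 0.03 and -0.18. Wnt3, a niche signal for hippocampal neurogenesis, was 0.36 in the first comparison and -0.50 in the second.

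Genes of the young neuron's cytoskeleton and adhesion, the company of Dcx and Tubb3, had 27 of 29 tested. For Sirt1 KO minus WT 15 were lower and 6 higher in both pairs, with a median of -0.23. Gap43, a growth cone protein, was -0.73 (pairs -0.77 and -0.69), and Stmn3, a microtubule regulator, was -0.48 (SE 0.75). L1cam, an axonal adhesion molecule, was -0.59 (SE 0.99), with -1.15 in the females and -0.03 in the males. For resveratrol minus DMSO 12 were lower and 6 higher, with a median of -0.07, Dpysl5 at -0.91 and Map1b at 0.71. DMSO minus WT held the widest single values, with the neurofilament gene Nefl at -3.81 (SE 0.54, pairs -4.61 and -3.01, limma adjusted p = 0.099) and Map1b, a microtubule-associated protein of growing axons, at -2.83 (limma adjusted p = 0.213).

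The repressors of neurogenesis, Hes, Hey, Helt and Id genes listed together with Rest, Notch1 and Rbpj, were the list with the most one-sided counts. For Sirt1 KO minus WT 8 of the 11 tested were higher in both pairs and 0 lower, with a median of 0.57. Hes5, the Notch effector that represses proneural genes, was 1.65 (SE 0.35, pairs 1.62 and 1.68), and Id4 and Id1, which bind and block bHLH partners, were 1.03 and 0.99. For Helt, a Hes-related repressor whose WT signals were not well above background, Sirt1 KO was higher by 2.62-fold with both WT arrays at their floors. Such floors are no strict limit, so the fold is not a strict lower bound. For resveratrol minus DMSO 1 was higher and 7 lower, with a median of -0.14, and Hes5 at -1.80 (pairs -1.40 and -2.21). Helt was above background on both DMSO arrays and on resveratrol 1, where the difference was -0.82, and not on resveratrol 2. The same 4 of 5 oligodendrocyte precursor markers were lower in both pairs of this comparison, and their part in the repressor values was not tested. For DMSO minus WT 6 were higher and 1 lower, Hes5 at 2.43 (limma adjusted p = 0.102). The knockout and DMSO comparisons share the WT arrays, and the resveratrol and DMSO comparisons share the DMSO arrays. The summed signal of the 7 astrocyte markers, relative to the array's 75th percentile, was 62.3 to 108 in WT, 91.6 to 167 in Sirt1 KO, 118 to 129 in DMSO and 116 to 124 in resveratrol, and 5 of the 7 were higher in both Sirt1 KO pairs. The part of astrocytic cells in the repressor values or in Sp8 was not tested.

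**Figure D4:**
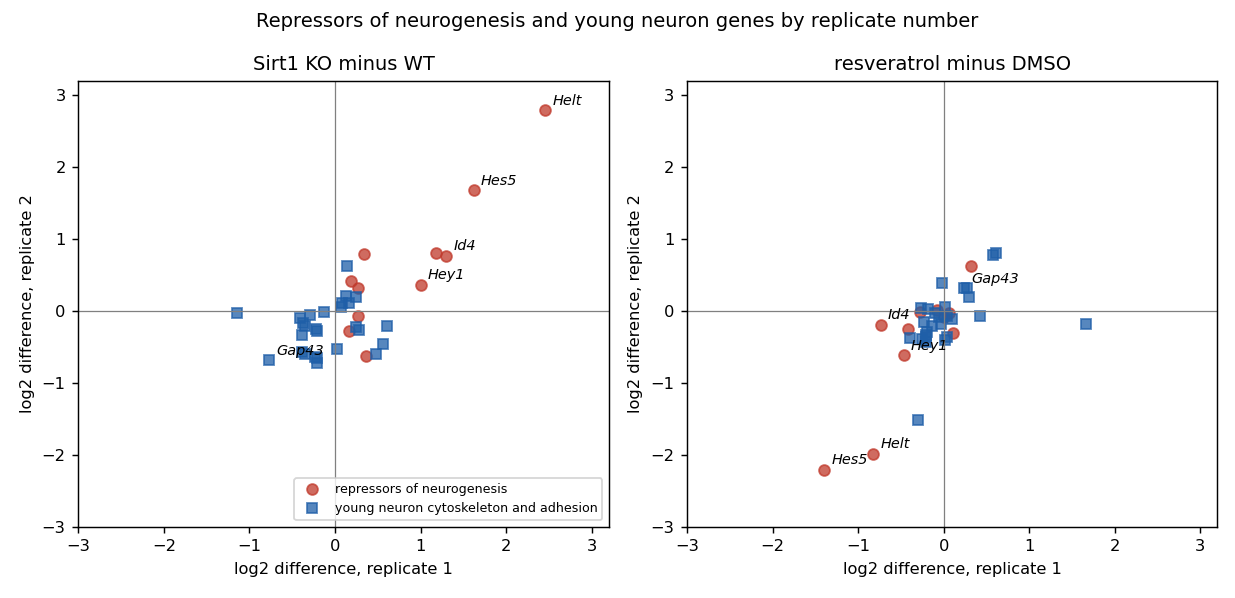
Replicate 2 difference (vertical axis) against replicate 1 difference (horizontal axis), both log2, for each tested gene of the repressor list (circles) and the young neuron list (squares), with Sirt1 KO minus WT on the left and resveratrol minus DMSO on the right. On the left 8 of 11 repressors lie at the upper right (higher in both), with Hes5 at 1.62 and 1.68, and 15 of 27 young neuron genes in the lower left, and on the right 7 of 11 repressors lie in the lower left; the Helt points include signals that were not above background on WT 1, WT 2 and resveratrol 2.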

How the data were processed

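RNA from 8 neurosphere samples was hybridised to 8 one-colour Agilent arrays. The deposited scanner files hold, per the file headers, an intensity for each of 45018 spots, background-corrected by Agilent Feature Extraction (10.7 per the submitters' processing notes, with 10.7.3.1 as the headers' fuller version). The deposited value table holds log2 values that, judging by the values themselves, the authors had normalized between arrays; the method is not given in the sources used here.

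Flagged and control spots (1639 per array) were left out, log2 intensities of a probe's spots averaged, and each array centred on its 75th percentile. A probe was kept if some group had it well above background in each of its arrays (26360 of 41174). Symbols came from accessions matched to RefSeq (GRCm38.p6; 26918 probes), and each of the 13331 genes took its brightest kept probe. Because the headers name build mm9, no probe coordinates are given. Limma 3.58.1 in R 4.3.3 fitted 4 group means over all 8 arrays with an intensity trend. Tests were two-sided, with Benjamini-Hochberg adjustment at 0.05 over all genes. The fit was also run on simulated data with 200 changed genes. That simulation gave all genes the same independent spread and no shift between replicate numbers. It therefore does not show how the test performs on these arrays.

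All members are named. Up to 4 genes of each list and comparison were eligible to be named, those with the largest absolute difference among genes of 1 sign in both pairs, and the 3 genes of highest r for each member, of which 1 is not reported here. The members and lists were chosen with earlier results of these data known. Deviations from the group mean correlated between same-numbered arrays (r of 0.737 between WT and Sirt1 KO, 0.834 between DMSO and resveratrol, 0.596 between WT and DMSO), but with 2 pairs and no label that states a shared source the numbers were not taken as pairs. Alternatives were normexp (offset 50) on the median spot signal, as the files hold no mean signal, quantile normalization, the authors' values, no filter, the mean of probes, no trend, replicate or slide blocks, and each array left out.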

Additional observations from a re-analysis of the deposited data

Results flagged for a closer look

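Of the dim genes, 3 were well above background on Sirt1 KO 1 and on neither WT array, although none of the 3 passed the filter that admitted genes to the comparisons. The share of all genes with that pattern was not counted, so the 3 are not read as an excess. On Sirt1 KO 1 69.1% of probes were well above background, against 68.6% on WT 1 and 53.0% on WT 2. Dlx2 stood on Sirt1 KO 1 at a level of -2.93, where the highest WT level as read was -5.70 and the WT 2 floor was -3.88. The level was not seen again on Sirt1 KO 2, whose floor of -4.40 lay below it. Dlx1 stood at -4.69 on the same array and Neurog2 at -4.89, both below the WT 2 floor, so no order against WT is given. Neurog2 was higher still on DMSO 1 (-3.21) and resveratrol 1 (-4.08), both from wild-type cells.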

How the results depend on the processing

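None of the 5 genes tested passed an adjusted p of 0.05 under any alternative. Under alternatives other than leaving out an array, 124 single-gene values kept their sign. The 11 that did not were, under normexp, Sp8 (-0.47) and Tubb3 (0.045) for Sirt1 KO minus WT and Dlx5 (-1.24), Sp8 (-0.82) and Prox1 (-1.19) for DMSO minus WT. With 1 background per array, an alternative chosen after seeing the data, they were Dlx5 (-0.36) and Prox1 (-0.034) for DMSO minus WT. The rest were Dlx5 for Sirt1 KO minus WT after quantile normalization (0.61) and in the authors' values (0.71), Prox1 as the mean of probes (0.25), and Dlx5 for DMSO minus WT with slide as a block (-0.58). The cause was not tested.

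Leaving out 1 array at a time gave, for Sirt1 KO minus WT, ranges of -1.17 to 0.25 for Dcx, -1.48 to 1.35 for Dlx5, -0.37 to 0.047 for Prox1, 1.93 to 2.33 for Sp8 and -0.63 to 0.57 for Tubb3. The Sp8 value of 1.93 and part of the Dlx5 range set Sirt1 KO against WT 2 alone, which was not above background for either gene, so they say nothing of stability. For resveratrol minus DMSO they were -0.82 to -0.30 for Dcx, -0.37 to 0.75 for Dlx5, -0.049 to 0.27 for Prox1, -0.19 to 0.58 for Sp8 and -0.88 to 0.39 for Tubb3. For DMSO minus WT they were -0.87 to -0.31 for Dcx, -1.37 to 1.45 for Dlx5, -0.15 to 0.26 for Prox1, 0.95 to 1.71 for Sp8 and -0.43 to 0.78 for Tubb3. Genes called ranged from 0 to 5 for Sirt1 KO minus WT, 0 to 4 for DMSO minus WT and 0 to 3 for the difference between the differences.

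With the replicate number as a block, genes called went from 0 to 26 for Sirt1 KO minus WT, 0 to 61 for resveratrol minus DMSO, 10 to 788 for DMSO minus WT and 0 to 39 for the difference between the differences. No tested member was among them, and Sp8 came nearest at a limma adjusted p of 0.0516 for Sirt1 KO minus WT. With slide as a block 137 were called for DMSO minus WT, and under normexp 3. The authors' values moved the all-gene median of DMSO minus WT from -0.03 to 0.09. The number of arrays, 2 per group, limits every value, and signal over background limits those of Neurog2, Neurod1, Dlx1, Dlx2 and Dlx5 and the WT 2 values of Sp8 and Prox1.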
